A study of Mus musculus with 4 samples.

Results

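The genes described here are 9 secreted modulators of Wnt signalling, Sfrp1, Sfrp2, Sfrp4, Sfrp5, Frzb, Dkk1, Dkk2, Dkk3 and Wif1, in mouse spermatogonial stem cells (SSCs). They were taken by symbol and are 9 of the 55335 genes in the count table. Sfrp2 was selected on its measured level, which was higher in both Tex11PM/Y libraries, so its genotype difference is given as a description with no test, and the others entered as members of the same families. RNA of 2 Tex11PM/Y libraries and 2 WT libraries was sequenced. All came from SSCs of a mouse testis, strain C57/BL6*DBA2, age postnatal day 10, kept in culture with repeated passages and collected on a FACS AriaII sorter. Tex11 is an X-linked gene needed for meiotic recombination in males, and the labels do not define the letters PM. No label says whether the libraries of a genotype came from separate animals or cultures, so p-values measure only the spread between these libraries, which may be technical.

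Wnt ligands are secreted proteins that act on neighbouring cells through Frizzled receptors, and for one branch of the pathway the LRP5 and LRP6 coreceptors, to keep β-catenin from being degraded. Secreted frizzled-related proteins (the SFRP family, with Frzb) and WIF1 bind Wnt ligands outside the cell, whereas DKK1 and DKK2 bind the LRP coreceptors. In the testis, Wnt ligands of somatic cells reach spermatogonia, and β-catenin signalling has been tied to the proliferation of undifferentiated spermatogonia.

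The count totals were 19306140 and 19804951 for libraries A and B of Tex11PM/Y cells, and 19047148 and 19396809 for WT replicates 1 and 2. Levels are given as CPM (read counts scaled to a common library size by the TMM method) and, where genes are compared with each other, as the deposited TPM (transcript abundance scaled for gene length and depth). Tex11 itself was at 22.7 and 9.32 CPM in libraries A and B of Tex11PM/Y cells, against 66.4 and 126 CPM in WT replicates 1 and 2. The libraries differed in markers of other cells. A list of 25 fibroblast markers took 0.0768% and 0.838% of counts in libraries A and B of Tex11PM/Y cells, against 2.17% and 0.679% in WT replicates 1 and 2, with none of the 25 at 0 counts in any library. A list of 12 macrophage markers took 0.00271% and 0.132% in libraries A and B of Tex11PM/Y cells, against 0.0646% and 0.0555% in WT replicates 1 and 2. Library A thus had the lowest level of both lists. The germ cell list of 12 genes took 0.412% and 0.318% in libraries A and B of Tex11PM/Y cells, against 0.261% and 0.313% in WT replicates 1 and 2. Its genes did not move together, with 8 fitted higher and 4 lower in Tex11PM/Y. Of those fitted lower, Gfra1, Ret and Etv5 were highest in WT replicate 1, where the share of the list was lowest. Myoid markers (9 genes) took 0.00241% and 0.00498% in the Tex11PM/Y libraries, against 0.0249% and 0.00558% in the WT libraries. Sertoli, Leydig and endothelial lists each took 0.00287% or less in every library. In bulk RNA, fewer cells of a type and less RNA per cell cannot be told apart. WT replicate 1 also stood apart in the genes of chromosome 8, whose median log2 CPM was 4.22 and 4.19 in the Tex11PM/Y libraries, against 4.64 and 4.19 in WT replicates 1 and 2.

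Sfrp2 encodes a secreted frizzled-related protein whose cysteine-rich domain resembles the Wnt-binding part of the Frizzled receptors. Its gene (ENSMUSG00000027996.13) lies on the plus strand of chromosome 3, positions 83766321 to 83774316 in mm10. Its promoter is shown together with that of Dkk2 because these were the tested members whose genotype groups did not overlap, Sfrp2 higher and Dkk2 lower in the Tex11PM/Y libraries. The sequences are the 250 bases before the start, from RefSeq (GRCm38.p6), plus strand, 5′ to 3′, with CG dinucleotides in capitals.
Sfrp2, chr3:83766071-83766320: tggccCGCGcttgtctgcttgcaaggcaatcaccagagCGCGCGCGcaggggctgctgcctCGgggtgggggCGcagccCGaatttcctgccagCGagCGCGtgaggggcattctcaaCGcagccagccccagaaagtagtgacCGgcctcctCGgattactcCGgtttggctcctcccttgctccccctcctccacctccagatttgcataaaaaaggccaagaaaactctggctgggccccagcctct
Dkk2, chr3:132085042-132085291: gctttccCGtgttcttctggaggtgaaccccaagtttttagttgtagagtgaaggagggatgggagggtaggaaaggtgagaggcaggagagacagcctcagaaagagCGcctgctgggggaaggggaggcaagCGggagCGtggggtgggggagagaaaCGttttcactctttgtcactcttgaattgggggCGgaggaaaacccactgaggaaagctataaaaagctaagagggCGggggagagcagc

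The Sfrp2 promoter held 16 CG dinucleotides and 63.6% G+C, and that of Dkk2 held 7 and 55.6%, against a median G+C of 52.4% over all 32851 promoters in the table. The observed-to-expected CG ratio was 0.64 for Sfrp2 and 0.449 for Dkk2, against a median of 0.374. The GC box GGGCGG was found at 60 and 17 bases before the Dkk2 start and TATAAA at 32 bases before it, and neither was found in the Sfrp2 window, both strands being searched. GGGCGG occurs in 32.7% and TATAAA in 12.4% of the promoters. The TCF/LEF motif CTTTGAT, the sequence bound by the transcription factors that work with β-catenin, occurs in 3.21% of promoters and in neither of these windows. Promoters were matched for 6 of the 9 members, and the other 4 matched windows (Frzb, Wif1, Dkk1 and Sfrp5) also held no CTTTGAT. For Frzb, Wif1 and Dkk1 the RefSeq start is not that of the count table, and their windows lie partly or mostly inside the gene spans given there.

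Sfrp2 was at 82.0 and 39.7 CPM in libraries A and B of Tex11PM/Y cells, against 3.82 and 14.3 CPM in WT replicates 1 and 2. Both Tex11PM/Y libraries were above both WT libraries, and the lower Tex11PM/Y library was 2.78 times the higher WT library. The means were 60.9 ± 29.9 CPM in Tex11PM/Y and 9.04 ± 7.38 CPM in WT (SD, n = 2 each), and the fitted log2 fold change was 2.75 ± 0.70 (standard error, SE), or 6.72-fold. These values follow from how the gene was chosen. The spread within genotypes was wide: library A was 2.06 times library B, and WT replicate 2 was 3.73 times WT replicate 1. The log2 fold change was 2.13 without library A, 3.14 without library B, 2.07 without WT replicate 1 and 3.96 without WT replicate 2. With the fibroblast list level as a covariate it was 1.85.

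The counts behind Sfrp2 were 1628 and 797 in libraries A and B of Tex11PM/Y cells, and 68 and 282 in WT replicates 1 and 2. The exact 95% counting intervals, on plain totals, were 80.3 to 88.5 and 37.5 to 43.1 CPM in the Tex11PM/Y libraries, against 2.77 to 4.53 and 12.9 to 16.3 CPM in the WT libraries. None of these 4 intervals overlapped another. Between genotypes, this rests on the values used to choose the gene. Within each genotype, the libraries differed by more than counting error, which is the only error these intervals cover. In deposited TPM the levels were 122 and 50.3 in libraries A and B of Tex11PM/Y cells, against 4.11 and 19.7 in WT replicates 1 and 2. FPKM recomputed from the counts and the annotated exon length was 1.02 to 1.08 times the deposited FPKM of Sfrp2 across the 4 libraries. Across the same libraries the ratio was 1.19 to 1.25 for Sfrp1 and 1.17 to 1.23 for Dkk3.

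**Figure D1:**
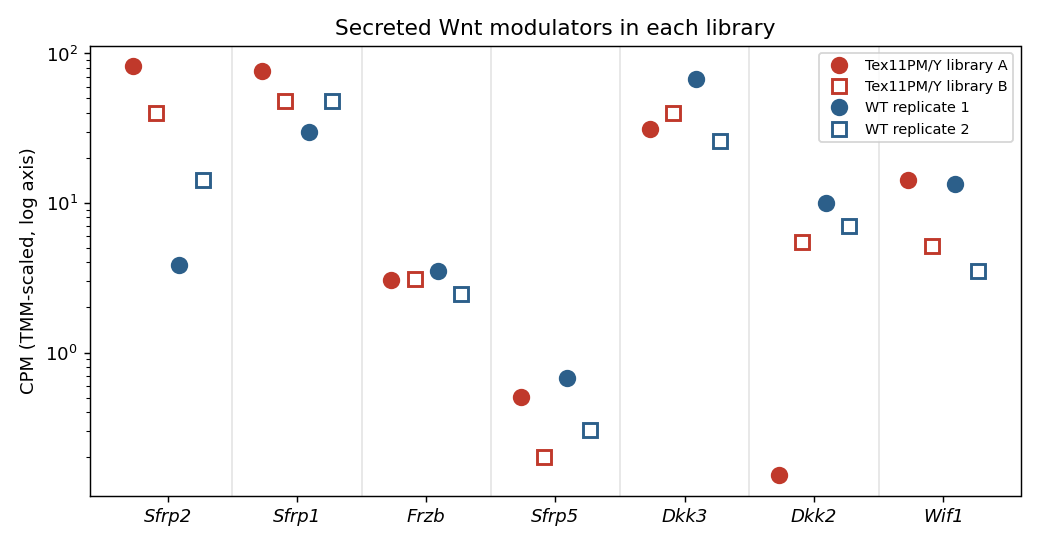
CPM (TMM-scaled, logarithmic axis) of the 7 members that passed the count filter, with 1 point per library, Tex11PM/Y in red and WT in blue. For Sfrp2 both red points lie above both blue points, for Dkk2 library A lies at 0.151 CPM, far below the other libraries, and the other genes overlap.

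Tex11PM/Y library B and WT replicate 2 were the pair of opposite genotype with the nearest fibroblast share, 0.838% and 0.679%, and this pair was picked after the values were seen. It is also the lower Tex11PM/Y library and the higher WT library in Sfrp2, so the Sfrp2 ratio of 2.78 given above follows from the choice of that gene. For members not chosen on their values, the ratio of library B over WT replicate 2 is given with an exact 95% interval that covers counting error only. For Sfrp1 it was 0.998 (0.911 to 1.09), that of Dkk2 was 0.780 (0.602 to 1.009) and that of Frzb was 1.25 (0.843 to 1.85). Dkk3 stood at 1.52 (1.36 to 1.70) and Wif1 at 1.47 (1.07 to 2.03). The intervals of Dkk3 and Wif1 lay above 1, and those of Sfrp1, Dkk2 and Frzb included 1.

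The tested protein-coding genes nearest to Sfrp2 on chromosome 3, at 62.0 to 1371 kb from it, were examined. Tlr2, a receptor for bacterial lipoproteins 62.0 kb beyond its end, was at 0.101 and 7.77 CPM in libraries A and B of Tex11PM/Y cells, against 8.26 and 3.29 CPM in WT replicates 1 and 2. Among the 3 nearest tested protein-coding genes on each side (Map9, Rbm46 and Plrg1 before it; Tlr2, Tmem131l and Mnd1 after it), log2 fold changes ran from -0.55 to 0.97, and none passed the edgeR test (adjusted p 0.884 to 0.986). Tmem131l, 123 kb beyond the end of Sfrp2, was at 159 and 132 CPM in the Tex11PM/Y libraries, against 101 and 96.6 CPM in the WT libraries. Plrg1, a splicing factor gene 694 kb before Sfrp2, was at 106 and 108 CPM in Tex11PM/Y, against 96.9 and 98.3 CPM in WT. In these 2 genes both Tex11PM/Y libraries lay above both WT libraries, the pattern for which Sfrp2 was chosen. In the other 4 the groups overlapped. Of all genes tested, 16.1% lay wholly higher in Tex11PM/Y in this way, and an effect shared across the locus was not tested. The antisense gene Gm26771, which shares 347 exon bases with Sfrp2, had 0 counts in all 4 libraries. No other member overlapped another annotated gene in its exons.

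Of the other SFRP genes that were tested (Sfrp1, Frzb and Sfrp5), none had its genotype groups apart in CPM, though Frzb and Sfrp5 did in deposited TPM. Of the 17262 genes tested, edgeR's quasi-likelihood test called 0 higher (0%) and 0 lower (0%) at an adjusted p of 0.05, with 171 higher and 295 lower at an unadjusted p under 0.05. DESeq2 called 1 gene and limma on log2(FPKM + 1) called 0. Of the 9 members 7 passed the count filter, and among these 1 lay wholly higher (Sfrp2, by choice) and 1 wholly lower (Dkk2) in Tex11PM/Y, against 16.1% and 16.3% of all genes tested. With 1 of 7 in each direction, the members lay near these shares.

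Sfrp1, a second SFRP that binds Wnt ligands, lies on chromosome 8 at 23411502 to 23449632. It was at 76.9 and 47.8 CPM in libraries A and B of Tex11PM/Y cells, against 30.1 and 47.9 CPM in WT replicates 1 and 2. The groups overlapped, since library B and WT replicate 2 were nearly equal. The means were 62.3 ± 20.6 CPM in Tex11PM/Y and 39.0 ± 12.6 CPM in WT (SD, n = 2 each), a log2 fold change of 0.68 ± 0.40 (SE; edgeR adjusted p = 0.884). WT replicate 1, in which chromosome 8 stood high, had the lowest Sfrp1. With the chromosome median subtracted in each library the log2 fold change of Sfrp1 was 0.88, but this setting also shifted the median of all genes by 0.13.

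Frzb, also known as Sfrp3, is on chromosome 2 at 80411970 to 80447625 and varied least among the 6 more abundant members. It was at 3.07 and 3.09 CPM in libraries A and B of Tex11PM/Y cells, against 3.48 and 2.48 CPM in WT replicates 1 and 2. The highest library was 1.41 times the lowest, and the log2 fold change was 0.05 ± 0.63 (SE; edgeR adjusted p = 0.992). In deposited TPM it was at 2.50 and 2.12 in the Tex11PM/Y libraries, against 2.11 and 1.90 in the WT libraries, just without overlap. Sfrp5, on chromosome 19 at 42197971 to 42202252, had 10 and 4 counts in libraries A and B of Tex11PM/Y cells, against 12 and 6 counts in WT replicates 1 and 2. Its groups overlapped in CPM, with a log2 fold change of -0.46 ± 0.88 (SE; edgeR adjusted p = 0.938). In deposited TPM it was at 0.263 and 0.115 in Tex11PM/Y, against 0.672 and 0.290 in WT, without overlap. FPKM recomputed from the Sfrp5 counts was 3.18 and 2.44 times the deposited FPKM in Tex11PM/Y, against 1.22 and 1.56 times in WT, so the deposited tables and the counts differ unevenly for this gene. Sfrp4, on chromosome 13 at 19623104 to 19632994, had 3 and 6 counts in the Tex11PM/Y libraries, against 1 and 1 in the WT libraries. It did not pass the count filter and was not tested.

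Dkk2, an antagonist that binds LRP5 and LRP6 and in some settings activates them, is on chromosome 3 at 132085292 to 132180304. It was at 0.151 and 5.48 CPM in libraries A and B of Tex11PM/Y cells, against 10.0 and 7.03 CPM in WT replicates 1 and 2. Both Tex11PM/Y libraries were below both WT libraries, but library A, with 3 counts, stood far from all others. Library A was 0.0276 times library B (exact 95% interval 0.00560 to 0.0827, counting error only). The means were 2.82 ± 3.77 CPM in Tex11PM/Y and 8.52 ± 2.10 CPM in WT (SD, n = 2 each), and the log2 fold change was -1.59 ± 1.27 (SE; edgeR adjusted p = 0.884).

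The Dkk2 value depended on which Tex11PM/Y library was kept. Without library B the log2 fold change was -5.80 and the edgeR adjusted p was 0.00811, in a fit that called 0.394% of 18765 genes higher and 2.37% lower. Without library A it was -0.63 with an adjusted p of 1.00, the range over all alternatives being 0.00811 to 1.00. Its profile lay near that of the fibroblast list. Both were lowest in library A, highest in WT replicate 1 and intermediate in the other libraries. The distance between their log2 CPM profiles, each centred on its mean over the 4 libraries, was 0.92, the smallest among the 7 members (the others lay between 3.31 and 6.84). All 25 fibroblast markers were fitted lower in Tex11PM/Y, with a median log2 fold change of -1.65, and the most abundant, Col1a1, was at 102 and 1531 CPM in libraries A and B of Tex11PM/Y cells, against 4710 and 995 CPM in WT replicates 1 and 2. With the fibroblast list as a covariate, the log2 fold change of Dkk2 was -0.32. That fit of 4 libraries leans on library A, where Dkk2 and the list were both lowest, so little can be drawn from it. The distance of Dkk2 to the macrophage list was 1.30.

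Dkk3, a DKK relative whose tie to Wnt receptors is less direct, is on chromosome 7 at 112116017 to 112159057. It was at 31.1 and 39.7 CPM in libraries A and B of Tex11PM/Y cells, against 67.9 and 26.1 CPM in WT replicates 1 and 2. The groups overlapped, with WT replicate 1 highest and WT replicate 2 lowest. The log2 fold change was -0.41 ± 0.49 (SE; edgeR adjusted p = 0.899), and it was 0.42 without WT replicate 1 and 0.14 with the fibroblast list as a covariate. Dkk1, on chromosome 19 at 30545863 to 30549665, is the best known LRP antagonist of the family. It had 0 and 1 counts in libraries A and B of Tex11PM/Y cells and 1 count in each WT library. With 3 counts as the limit, a count of 0 of 19306140 allows up to 0.155 CPM on the plain total, and the exact 95% interval reaches 0.191 CPM; no difference in Dkk1 was detectable at this depth.

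Wif1, which binds Wnt ligands through a domain unlike that of the SFRP proteins, is on chromosome 10 at 121033960 to 121100650. It was at 14.3 and 5.13 CPM in libraries A and B of Tex11PM/Y cells, against 13.3 and 3.49 CPM in WT replicates 1 and 2. Each genotype had 1 high and 1 low library, and the groups overlapped. The log2 fold change was 0.21 ± 0.79 (SE; edgeR adjusted p = 0.972). Its sign turned without library A (-0.71), without WT replicate 2 (-0.48) and with the fibroblast list as a covariate (-0.47).

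**Figure D2:**
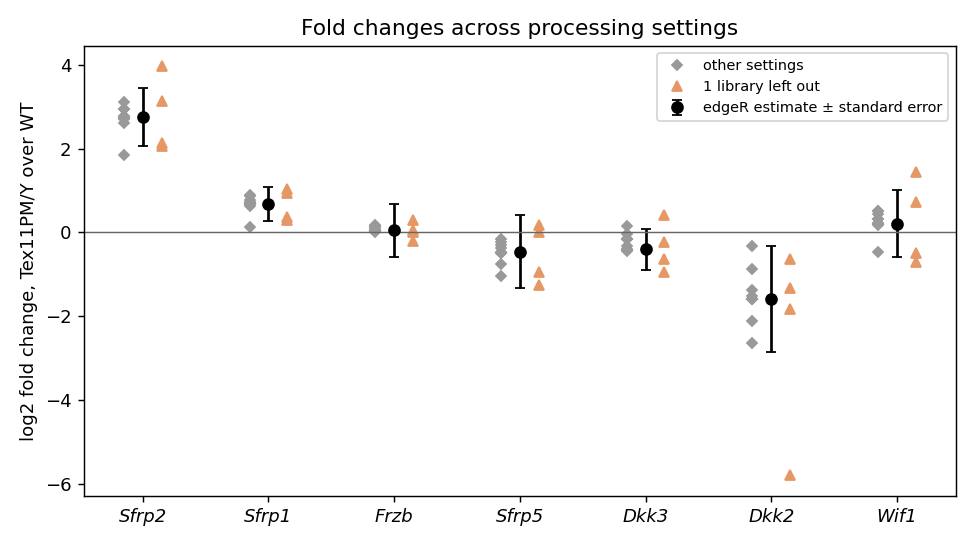
Log2 fold change of Tex11PM/Y over WT for the 7 tested members, with black points and bars for the edgeR estimate and its standard error, triangles for fits with 1 library left out and diamonds for other settings. Sfrp2 stays above 0 in all 14 alternatives, at 1.85 to 3.96. Its sign with 1 library left out was fixed by how the gene was chosen. The other settings reuse the libraries on which it was chosen, so their sign is no separate support. Dkk2 reaches -5.80 in 1 fit, and Dkk3 and Wif1 lie on both sides of 0.

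Per gene length, the members spanned a wide range. Over the 4 libraries the mean deposited TPM was 49.0 for Sfrp2, 26.9 for Sfrp1 and 26.7 for Dkk3. It was 8.79 for Wif1, 3.22 for Dkk2, 2.16 for Frzb and 0.335 or less for Sfrp5, Sfrp4 and Dkk1. The Sfrp2 mean carries the values on which the gene was chosen. In WT alone the mean was 11.9 for Sfrp2, 18.8 for Sfrp1 and 27.9 for Dkk3. Sfrp1 and Dkk3 did not differ beyond their spread over libraries, which ran from 12.7 to 45.1 TPM for Sfrp1 and from 17.9 to 38.0 TPM for Dkk3. Sfrp2 was the highest member in both Tex11PM/Y libraries, against rank 5 in WT replicate 1 and rank 2 in WT replicate 2. Dkk3 led in WT replicate 1 and Sfrp1 in WT replicate 2.

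As a share of the summed TPM of the 9 genes, Sfrp2 made up 58.1% and 44.5% in libraries A and B of Tex11PM/Y cells, against 5.60% and 27.2% in WT replicates 1 and 2. Dkk3 made up 11.3% and 24.0% in the Tex11PM/Y libraries, against 51.8% and 24.6% in the WT libraries. The summed TPM was 210 and 113 in libraries A and B of Tex11PM/Y cells, against 73.4 and 72.7 in WT replicates 1 and 2. Without Sfrp2 the sums were 87.9 and 62.7 in Tex11PM/Y, against 69.2 and 52.9 in WT. The groups overlapped once Sfrp2 was left out. The ranks and shares of Sfrp2, and the sums that include it, carry the values on which the gene was chosen.

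**Figure D3:**
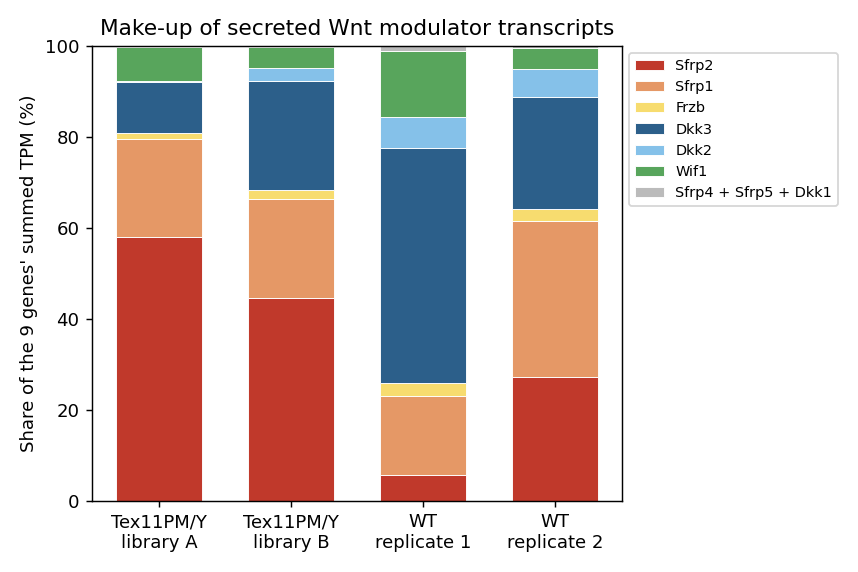
Share of each gene in the summed deposited TPM of the 9 members, 1 stacked bar per library, with the Tex11PM/Y libraries on the left and the WT libraries on the right. Sfrp2 fills 58.1% and 44.5% of the Tex11PM/Y bars and 5.60% and 27.2% of the WT bars, where Dkk3 or Sfrp1 takes the largest share. The Sfrp2 shares carry the values on which the gene was chosen.

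Beside the germ cell list, the profile distances ordered the members differently. Frzb (0.56), Sfrp1 (0.71), Sfrp5 (1.18) and Dkk3 (1.29) lay nearest to it, Wif1 at 1.81 and Sfrp2 at 3.07, and Dkk2 lay farthest at 4.45. This distance counts the size of swings as well as their order. The list mean ran only from 6.76 to 7.12 log2 CPM, so members that varied little lay near it. Frzb was highest in WT replicate 1, where the list was lowest. Sfrp2, like the list, was highest in library A and lowest in WT replicate 1. Sfrp2 was farther from the fibroblast list than any of the other tested members, at 6.84. Set against Dazl, an RNA-binding protein of germ cells and the most abundant marker of the list, Sfrp1 was at 6.44 and 5.90 CPM per 100 CPM of Dazl in libraries A and B of Tex11PM/Y cells, against 5.44 and 5.46 in WT replicates 1 and 2. Sfrp2 was at 6.87 and 4.90 per 100 CPM of Dazl in the Tex11PM/Y libraries, against 0.692 and 1.63 in the WT libraries. With Ret, the GDNF receptor kinase of SSCs, in place of Dazl, Sfrp2 was at 16.5 and 8.85 in Tex11PM/Y, against 0.589 and 3.33 in WT. These Sfrp2 ratios carry the values on which the gene was chosen. Sfrp1 per 100 CPM of Ret was at 15.4 and 10.6 in Tex11PM/Y, against 4.63 and 11.2 in WT, with overlap. These distances and ratios are descriptions over 4 libraries, and the part of cell makeup in them was not tested further.

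**Figure D4:**
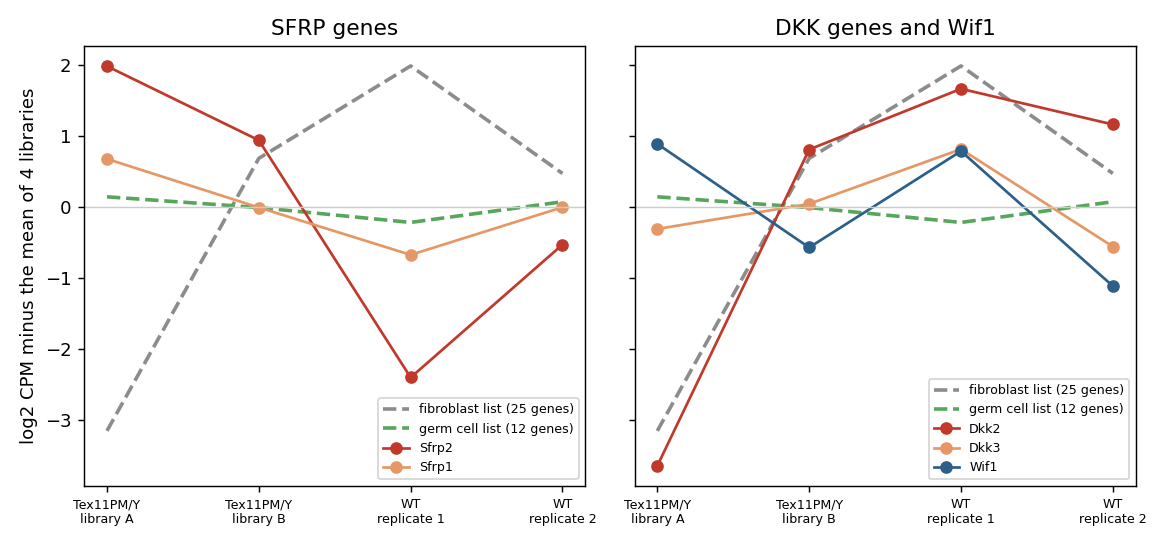
Log2 CPM minus the mean over the 4 libraries for Sfrp2 and Sfrp1 (left) and for Dkk2, Dkk3 and Wif1 (right), with dashed lines for the means of the fibroblast list (25 genes) and the germ cell list (12 genes); lines join libraries for reading only. Dkk2 runs close to the fibroblast line, and Sfrp2 runs the other way.

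Genes with the most similar profile were sought among 10900 tested genes of at least 5 CPM on average. Near Sfrp2 lay Hmgn5, a nucleosome-binding protein, at a distance of 0.83, with 62.5 and 46.9 CPM in libraries A and B of Tex11PM/Y cells, against 5.90 and 22.0 CPM in WT replicates 1 and 2. The long noncoding RNA Fendrr (1.06), the sperm calcium channel subunit gene Catsperg1 (1.08) and Ankrd45 (1.08) came next. Only 2 of the 10900 genes lay within a distance of 1 of Sfrp2, against 4703 for Sfrp1 and 3773 for Dkk3. The Sfrp2 distances use the values on which the gene was chosen, so this contrast is not a separate result. The nearest to Sfrp1 were Klhl11 (0.013), Flvcr1, Eri2, Terf1 and Zfp251, and the nearest to Dkk3 were Ppp6r2 (0.073), Gsta4, Fthl17d, Tfr2 and Camk2b. The Sfrp2 profile was also wide, with the highest library at 21.5 times the lowest, and it rests on 4 libraries.

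The rest of the Wnt pathway was read from 88 other genes, of which 77 were tested. None was called by edgeR (0 of 77) and none by DESeq2, and every edgeR adjusted p was at least 0.884. At an unadjusted edgeR p under 0.05 there were 5 of the 77, against 2.70% of all genes tested. The median log2 fold change was -0.19, against 0.01 over all genes tested. Fitted higher were 30 of the 77, against 51.0% of all genes tested, the share to set beside each list below. The groups were apart with Tex11PM/Y higher for 10 genes (13%) and lower for 23 (29.9%), against 16.1% and 16.3% of all genes. Without library B, 5 of 81 tested Wnt genes were called, Apc higher and Ccnd1, Cd44, Wls and Wnt5a lower, in the fit that called 0.394% of all genes higher and 2.37% lower.

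Of the 14 tested genes for ligands and their release, 3 were fitted higher and 11 lower, with a median of -0.63. Wnt3, a ligand of the β-catenin branch, was at 18.2 and 35.5 CPM in libraries A and B of Tex11PM/Y cells, against 38.3 and 26.7 CPM in WT replicates 1 and 2. Wnt5a, a ligand mostly tied to β-catenin-independent signalling, was at 1.91 and 40.0 CPM in Tex11PM/Y, against 41.7 and 34.3 CPM in WT. Library A alone was low. Wls, the carrier needed for Wnt release, was at 4.08 and 19.5 CPM in Tex11PM/Y, against 58.5 and 21.6 CPM in WT, and its groups did not overlap (-1.77 ± 0.81 on the log2 scale, edgeR adjusted p = 0.884). Wnt5b was at 7.81 and 12.4 CPM in Tex11PM/Y, against 6.35 and 14.9 CPM in WT. Wnt3, Wnt5a and Wls, like Dkk2 and the fibroblast list, were lowest in library A, whereas Wnt5b was not. The same held for Lrp5, Kremen1, Rspo4 and Tcf7 below, while Lrp6, Znrf3 and Apc were highest there. Any link to the fibroblast share was not tested.

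All 16 receptor genes were tested, with 5 fitted higher, 11 lower and a median of -0.41. Lrp5 and Lrp6, the coreceptors to which DKK1 and DKK2 bind, had fitted values of opposite sign. Lrp5 was at 72.3 and 94.4 CPM in libraries A and B of Tex11PM/Y cells, against 207 and 102 CPM in WT replicates 1 and 2, without overlap. Lrp6 was at 172 and 98.0 CPM in Tex11PM/Y, against 87.8 and 124 CPM in WT, with overlap. The more abundant Ptk7 and Ryk, coreceptors of other Wnt branches, had log2 fold changes of -0.58 and -0.35. None of the 4 passed the edgeR test (adjusted p 0.884 to 0.893).

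Among 17 tested extracellular and membrane regulators the median was 0.09, with 9 fitted higher and 8 lower. Rspo2, a secreted R-spondin that strengthens Wnt signals, was at 62.5 and 68.7 CPM in libraries A and B of Tex11PM/Y cells, against 25.2 and 42.2 CPM in WT replicates 1 and 2. Its groups did not overlap, and its log2 fold change was 0.96 ± 0.38 (SE; edgeR adjusted p = 0.884). Znrf3, the membrane ligase that R-spondins hold back, was at 64.0 and 51.5 CPM in Tex11PM/Y, against 42.1 and 52.0 CPM in WT, with overlap. Kremen1, a receptor for DKK proteins, was at 74.3 and 112 CPM in Tex11PM/Y, against 145 and 105 CPM in WT, and Rspo4 was at 25.3 and 46.0 CPM, against 42.8 and 33.5 CPM in WT. Both overlapped.

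The 18 intracellular genes had a median of 0.04, with 9 fitted higher and 9 lower. The groups were apart with Tex11PM/Y higher for 5 of them and lower for 5. Ctnnb1, which encodes β-catenin, was at 735 and 761 CPM in libraries A and B of Tex11PM/Y cells, against 533 and 731 CPM in WT replicates 1 and 2. Csnk1a1, a kinase of the β-catenin destruction complex, and Dvl2, an adaptor below Frizzled, had log2 fold changes of 0.39 and 0.41. In Ctnnb1, Csnk1a1 and Dvl2 both Tex11PM/Y libraries lay above both WT libraries. Apc, a scaffold of the destruction complex, was at 529 and 151 CPM in Tex11PM/Y, against 86.5 and 191 CPM in WT, with library B below WT replicate 2 and a log2 fold change of 1.29. Each had an edgeR adjusted p of 0.884 to 0.906.

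The 12 target genes had a median of -0.49, with 4 fitted higher and 8 lower. Axin2, a general feedback target of β-catenin, was at 33.4 and 22.7 CPM in libraries A and B of Tex11PM/Y cells, against 31.7 and 22.8 CPM in WT replicates 1 and 2. Its log2 fold change was 0.04 ± 0.41 (SE; edgeR adjusted p = 0.990), so no difference beyond the spread between libraries was seen. Tcf7, a transcription factor of the pathway, was at 227 and 267 CPM in Tex11PM/Y, against 377 and 250 CPM in WT, with overlap. Ccnd1, a cyclin, was at 18.9 and 57.3 CPM in Tex11PM/Y, against 63.7 and 79.1 CPM in WT, and Cd44, a surface receptor also common on fibroblasts, was at 3.88 and 42.8 CPM, against 64.3 and 43.1 CPM in WT. The groups of both did not overlap, and both were lowest in library A.

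**Figure D5:**
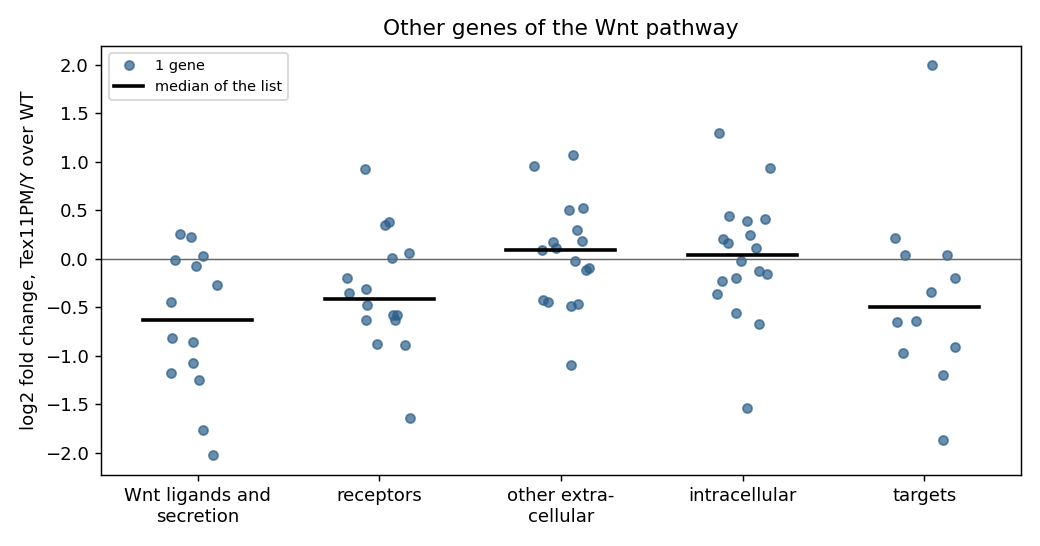
Log2 fold change of Tex11PM/Y over WT (edgeR) for each tested gene of 5 Wnt pathway lists, with 1 point per gene and a bar for the median of the list. The medians are -0.63 for ligands, -0.41 for receptors, 0.09 for other extracellular genes, 0.04 for intracellular genes and -0.49 for targets, and no gene passed the test.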

How the data were processed

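Poly(A) RNA of cultured, sorted SSCs was sequenced in 4 libraries, 2 of Tex11PM/Y and 2 of WT. Tools listed in the submitters' processing notes, with no role or version, are STAR, StringTie, fastp, DESeq2 and featureCounts; their build is mm10. Which annotation was used is not given in the sources. The library kit is not stated to keep strand, so reads of a gene and an antisense partner cannot be told apart. The authors deposited a table of raw read counts (whole numbers) for 55335 genes, per the file headers, and tables of FPKM and TPM values of 37653 genes, both made by the authors. Both Tex11PM/Y columns carry the same replicate number, so they are called library A and library B in column order. Between any pair of libraries, counts differed beyond sampling noise (chi-square over degrees of freedom 18.6 to 217).

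Members were found by symbol in the FPKM table and joined by gene identifier to the counts. Counts were fitted with edgeR 4.0.16 under R 4.3.3 (filterByExpr, TMM scaling, robust quasi-likelihood F test, genotype as the only term), with Benjamini-Hochberg adjustment over the 17262 genes tested and a threshold of 0.05. The fit was tested on simulated data. Log2 CPM used a prior count of 2, and FPKM was also tested with limma 3.58.1 after adding 1 or 0.1, TPM after adding 1. DESeq2 1.42.0, other scalings and filters (1 CPM in 2 libraries, or none), a fibroblast covariate, chromosome-median centring and leaving out each library were alternatives. With 4 libraries, the fit with the fibroblast covariate has little left to measure spread. The smallest two-sided p of a permutation test with 2 libraries on each side is 0.333.

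The text names all members, up to 4 genes per Wnt list by mean CPM, the 5 nearest profiles to Sfrp2, Sfrp1 and Dkk3, and the top markers. The members and all lists were chosen with earlier results of these data known. Nearest profiles used Euclidean distance of centred log2 CPM. A gene that the rule on profiles names is not reported here. Promoters came from RefSeq (GRCm38.p6).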

Additional observations from a re-analysis of the deposited data

How the results depend on the processing

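No gene was called by edgeR in 17262 tested. DESeq2 called 1 gene, and edgeR with no count filter called 50 (16 higher, 34 lower). Leaving out 1 library gave 0 to 518 called genes; the 518 (74 higher, 444 lower) came without Tex11PM/Y library B, where 1 library stands for the genotype and is assumed to vary like WT. The same settings gave 0 to 5 called Wnt pathway genes, the 5 also without library B. The log2 fold change of Sfrp2 ran from 2.07 to 3.96 with 1 library left out and from 1.85 to 3.11 in the other settings. The sign of Sfrp2 with 1 library left out was fixed by how the gene was chosen. The other settings reuse the libraries on which it was chosen, so their sign is no separate support. Sfrp1 kept its direction in 14 of 14 alternatives (0.14 to 1.03), as did Dkk2 (-5.80 to -0.32). Directions turned for Sfrp5 (-1.26 to 0.18 with 1 library left out), Frzb (-0.20 to 0.29), Dkk3 (-0.96 to 0.42; 0.14 with the fibroblast covariate) and Wif1 (-0.71 to 1.45; -0.47 with the fibroblast covariate). The cause was not tested. List medians ran from -0.93 to -0.17 for ligands, -0.60 to -0.17 for receptors, -0.07 to 0.18 for other extracellular genes, -0.20 to 0.20 for intracellular genes and -0.73 to -0.15 for targets. The median of all genes shifted by 0.15 with log2(TPM + 1) and by 0.13 with chromosome medians subtracted. No paired analysis was possible because both Tex11PM/Y columns carry the same replicate number. With 2 libraries a genotype and wide spread within them, small differences could not be seen, and Sfrp4 and Dkk1 were limited by depth.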
